A study of Gossypium with 24 samples.

Results

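The genes described here are 14 of the 60633 gene IDs counted in roots of cotton (Gossypium) seedlings, and they were selected on their measured values. Each was at least 4-fold higher in control roots 24 h after re-lighting than at 0 h (a log2 ratio of at least 2), in both varieties. In each variety its level in waterlogged roots was also within 1.41-fold of the control (a log2 ratio under 0.5 in size) at 0 h and at 24 h. Levels for this choice were group means of CPM, the counts scaled to a common library total, and 0.5 CPM was added before each ratio. The 14 IDs are called the members below, and the 4393 IDs that met the condition on the controls in both varieties are called the control risers. The values that chose the members are given as a description, without a test.

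The series holds 24 RNA sequencing libraries of whole roots, 3 in each of 8 groups. Groups cross the waterlogging-tolerant variety 9001 (also ZM9001) and the flood-sensitive variety 4847 (also Z4847), a treatment and a time. All seedlings spent 96 h in the dark. Control roots were not flooded (DN) and waterlogged roots were flooded during those 96 h (DW). Roots were sampled at the end of the dark period (0 h), or 24 h after the light was turned on again and, for waterlogged seedlings, the water was removed. No group stayed in the dark for those 24 h, so light, drainage and elapsed time cannot be told apart. Nothing given here says that libraries of 1 group come from different plants. The p-values below therefore reflect library-to-library spread alone, part or all of which may be technical. In whole roots, fewer cells of a type and less RNA per cell cannot be told apart either.

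Flooding cuts the supply of oxygen to roots, which then draw on fermentation and stored sugars for energy. Darkness stops photosynthesis in the shoot and so lowers the supply of sugars to the root. Draining and re-lighting restore both, and much of a root's gene expression is known to respond to oxygen, sugar and time of day. Upland cotton carries an A and a D subgenome, so that many genes exist as a pair of near-identical copies, named A or D in the gene IDs. Counts of such copies are uncertain where reads match both. Without names or an annotation for the IDs, no role is given to any member, and root marker genes could not be checked.

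Total counts ran from 21423479 to 39945111 per library. The waterlogged 4847 libraries at 24 h were the shallowest, with a mean of 22035053, against group means from 36512178 to 39388041 in the other 7 groups. The biological coefficient of variation fitted within a group was 5.78% to 7.23% in the 4 control groups and 6.59% in waterlogged 9001 at 24 h. It was 10.5% (4847) and 11.4% (9001) in waterlogged roots at 0 h and 14.4% in waterlogged 4847 at 24 h.

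The waterlogging bound at 24 h in variety 4847 removed the most control risers. Of the 4393 control risers, 1499 (34.1%) were within the bound at 0 h in both varieties. At 24 h, 1058 (24.1%) were within it in 9001 and 253 (5.76%) in 4847, with 82 (1.87%) within it in both. All 4 bounds left the 14 members, 0.319% of the control risers. Without any condition on the controls, 12505 IDs met the 4 bounds. The median waterlogging difference of the control risers at 24 h, as the log2 ratio of waterlogged over control by library totals, was -1.04 in 9001 and -2.63 in 4847. For all IDs it was -0.11 and -0.41. At 0 h the medians of the control risers were -0.23 and -0.11, against -0.25 and -0.14 for all IDs.

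**Figure D1:**
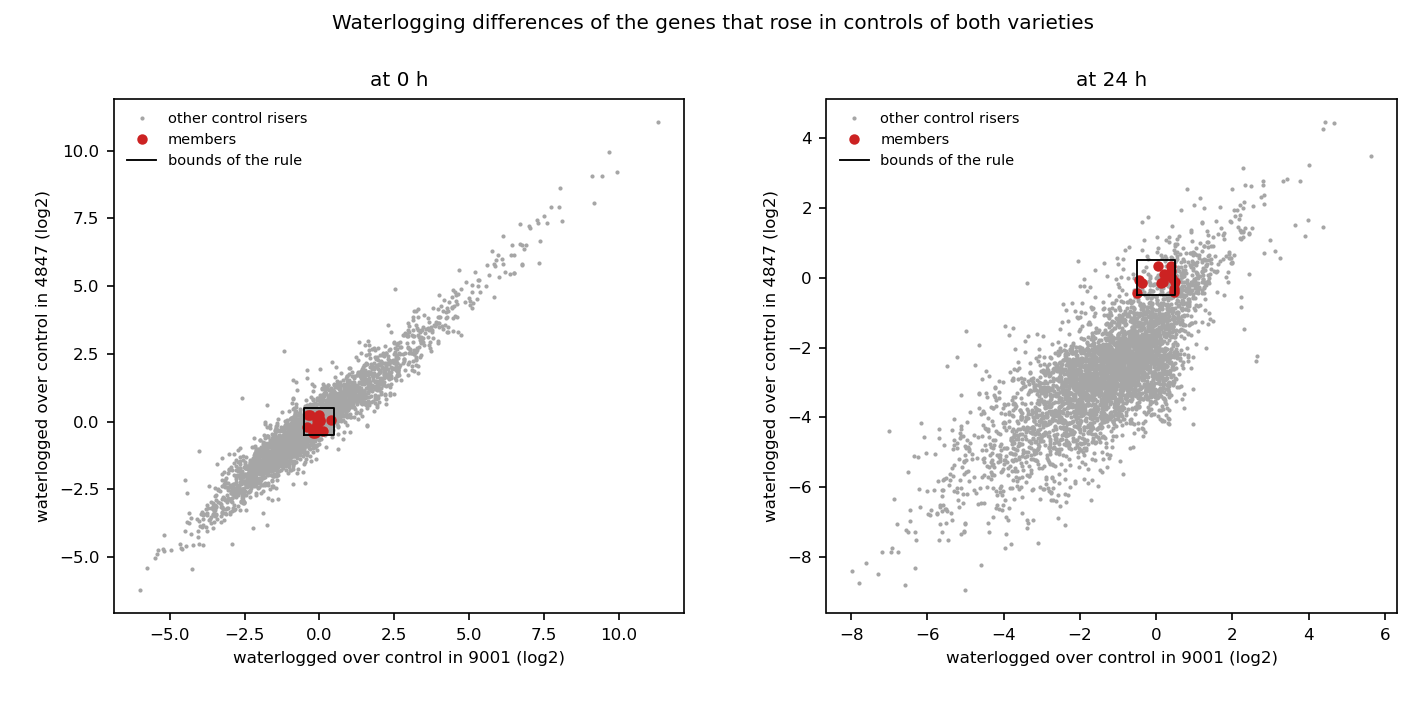
Log2 ratio of waterlogged over control roots for the 4393 control risers (grey) and the 14 members (red), with variety 9001 on the x axis and 4847 on the y axis, at 0 h and at 24 h (CPM by library totals plus 0.5). The box marks the bound of 0.5. At 24 h most control risers lie below 0 in both varieties, with medians of -1.04 and -2.63, and the members are the few inside the box there and at 0 h.

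The members sit in a thinly filled corner of these values. The smallest control rise among them, taking the lower of the log2 ratios in both varieties, was 2.01 (Ghir_A13G022950), and the largest among IDs just outside that met every other bound was 1.92. Another 24 IDs met the waterlogging bounds with a control rise between 1.5 and 2. The largest waterlogging difference inside was -0.495 (Ghir_D08G002990 in 9001 at 24 h), and the nearest control riser outside had 0.502. A further 53 control risers had their largest difference between 0.5 and 0.75, while 4243 had one of 1 or more in size.

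In control roots the members were higher at 24 h in every library. Their median log2 ratio of 24 h over 0 h was 2.55 in 9001 (2.01 to 4.59) and 2.37 in 4847 (2.03 to 4.71), below the medians of all control risers, 2.71 and 2.92. As ratios of mean CPM without a pseudocount, the medians were 10.1 in 9001 and 7.20 in 4847. Summed over the 14 members, control roots held 30.1 CPM ± 0.783 (SD, n = 3) at 0 h and 339 ± 6.88 at 24 h in 9001. In 4847 the sums were 34.8 ± 2.19 and 333 ± 3.69 CPM.

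The member with the largest control rise was Ghir_D11G033280, on chromosome D11. In control libraries of 9001 it stood at 6.72, 5.97 and 4.89 CPM at 0 h and at 155, 147 and 157 CPM at 24 h. In those of 4847 it stood at 5.11, 6.85 and 4.32 CPM, then at 159, 150 and 154 CPM. The varieties overlapped at both times, and the later libraries were 26.1-fold (9001) and 28.5-fold (4847) above the earlier ones in mean CPM. Its waterlogged libraries held 4.45, 4.50 and 4.84 CPM at 0 h and 174, 180 and 166 CPM at 24 h in 9001. In 4847 they held 6.73, 6.32 and 6.64 CPM, then 139, 136 and 147 CPM. At 24 h the waterlogged libraries were therefore all above the controls in 9001 and all below them in 4847, by 1.13-fold and 0.910-fold in mean CPM. This ID alone made up 45.1% to 47.2% of the members' summed CPM at 24 h, as group means, and 15.5% to 19.6% at 0 h.

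Ghir_A10G004670, on chromosome A10, had the next largest control rise. Its control libraries of 9001 held 1.74, 1.57 and 2.16 CPM at 0 h and 32.9, 32.0 and 32.6 CPM at 24 h. Those of 4847 held 2.87, 2.79 and 2.85 CPM, then 29.2, 28.2 and 29.3 CPM. The varieties did not overlap at either time, and their order differed: 9001 was lower at 0 h and higher at 24 h. Waterlogged libraries of 9001 held 1.28, 1.61 and 0.882 CPM at 0 h and 35.8, 38.6 and 32.9 CPM at 24 h. Those of 4847 held 2.83, 1.95 and 2.41 CPM, then 25.2, 23.5 and 28.4 CPM. In waterlogged 9001 at 24 h its lowest library lay only just above the highest control.

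The other 12 members were lower in CPM at 24 h than Ghir_D11G033280, and their control means at 24 h ran from 2.01 to 42.4 CPM in 9001 and from 2.39 to 46.1 CPM in 4847. Ghir_D08G002990 had the highest of these, with 41.5, 41.7 and 43.9 CPM in control 9001 and 45.6, 45.4 and 47.1 CPM in control 4847. Ghir_A13G022950 had the lowest, with 1.98, 2.06 and 1.98 CPM in 9001 and 2.08, 2.17 and 2.91 CPM in 4847. Per gene length, the level of the members in control 9001 at 24 h ran from 1.14 (Ghir_A11G000290) to 52.8 (Ghir_D11G033280) FPKM (fragments scaled by gene length and library total).

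Other members differed in how far they stood from 0 at the start. Ghir_D09G020890 held 0.869, 0.996 and 0.858 CPM in control 9001 at 0 h and 10.7, 10.3 and 11.2 CPM at 24 h. In control 4847 it held 0.678, 0.904 and 0.288 CPM, then 8.95, 8.54 and 9.14 CPM. Both varieties thus went from under 1 CPM to about the median level of the control risers at 24 h. Ghir_D10G008610 started lower, at 0.132, 0.419 and 0.312 CPM in control 9001 and 0.0782, 0.103 and 0.0262 CPM in control 4847. It reached 4.42, 4.65 and 4.63 CPM and 2.69, 2.46 and 3.60 CPM at 24 h. Its ratio of mean CPM was 42.1 in 4847 and 15.9 in 9001, from 8 and 33 counts at 0 h.

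Ghir_D13G012470 is the shortest member, at 453 bases. Its control libraries of 9001 held 0.527, 0.812 and 1.04 CPM at 0 h and 6.35, 6.26 and 7.26 CPM at 24 h. Those of 4847 held 0.835, 0.827 and 1.18 CPM, then 5.98, 7.42 and 6.59 CPM, so that the varieties overlapped at both times. Per gene length it ranked higher than by CPM, with 14.6 FPKM ± 1.22 (SD, n = 3) in control 9001 at 24 h and 14.7 ± 1.59 in control 4847. The next ID on the chromosome, Ghir_D13G012480, was a control riser with log2 ratios of 5.40 (9001) and 5.21 (4847), but its largest waterlogging difference was 5.79 in size.

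**Figure D2:**
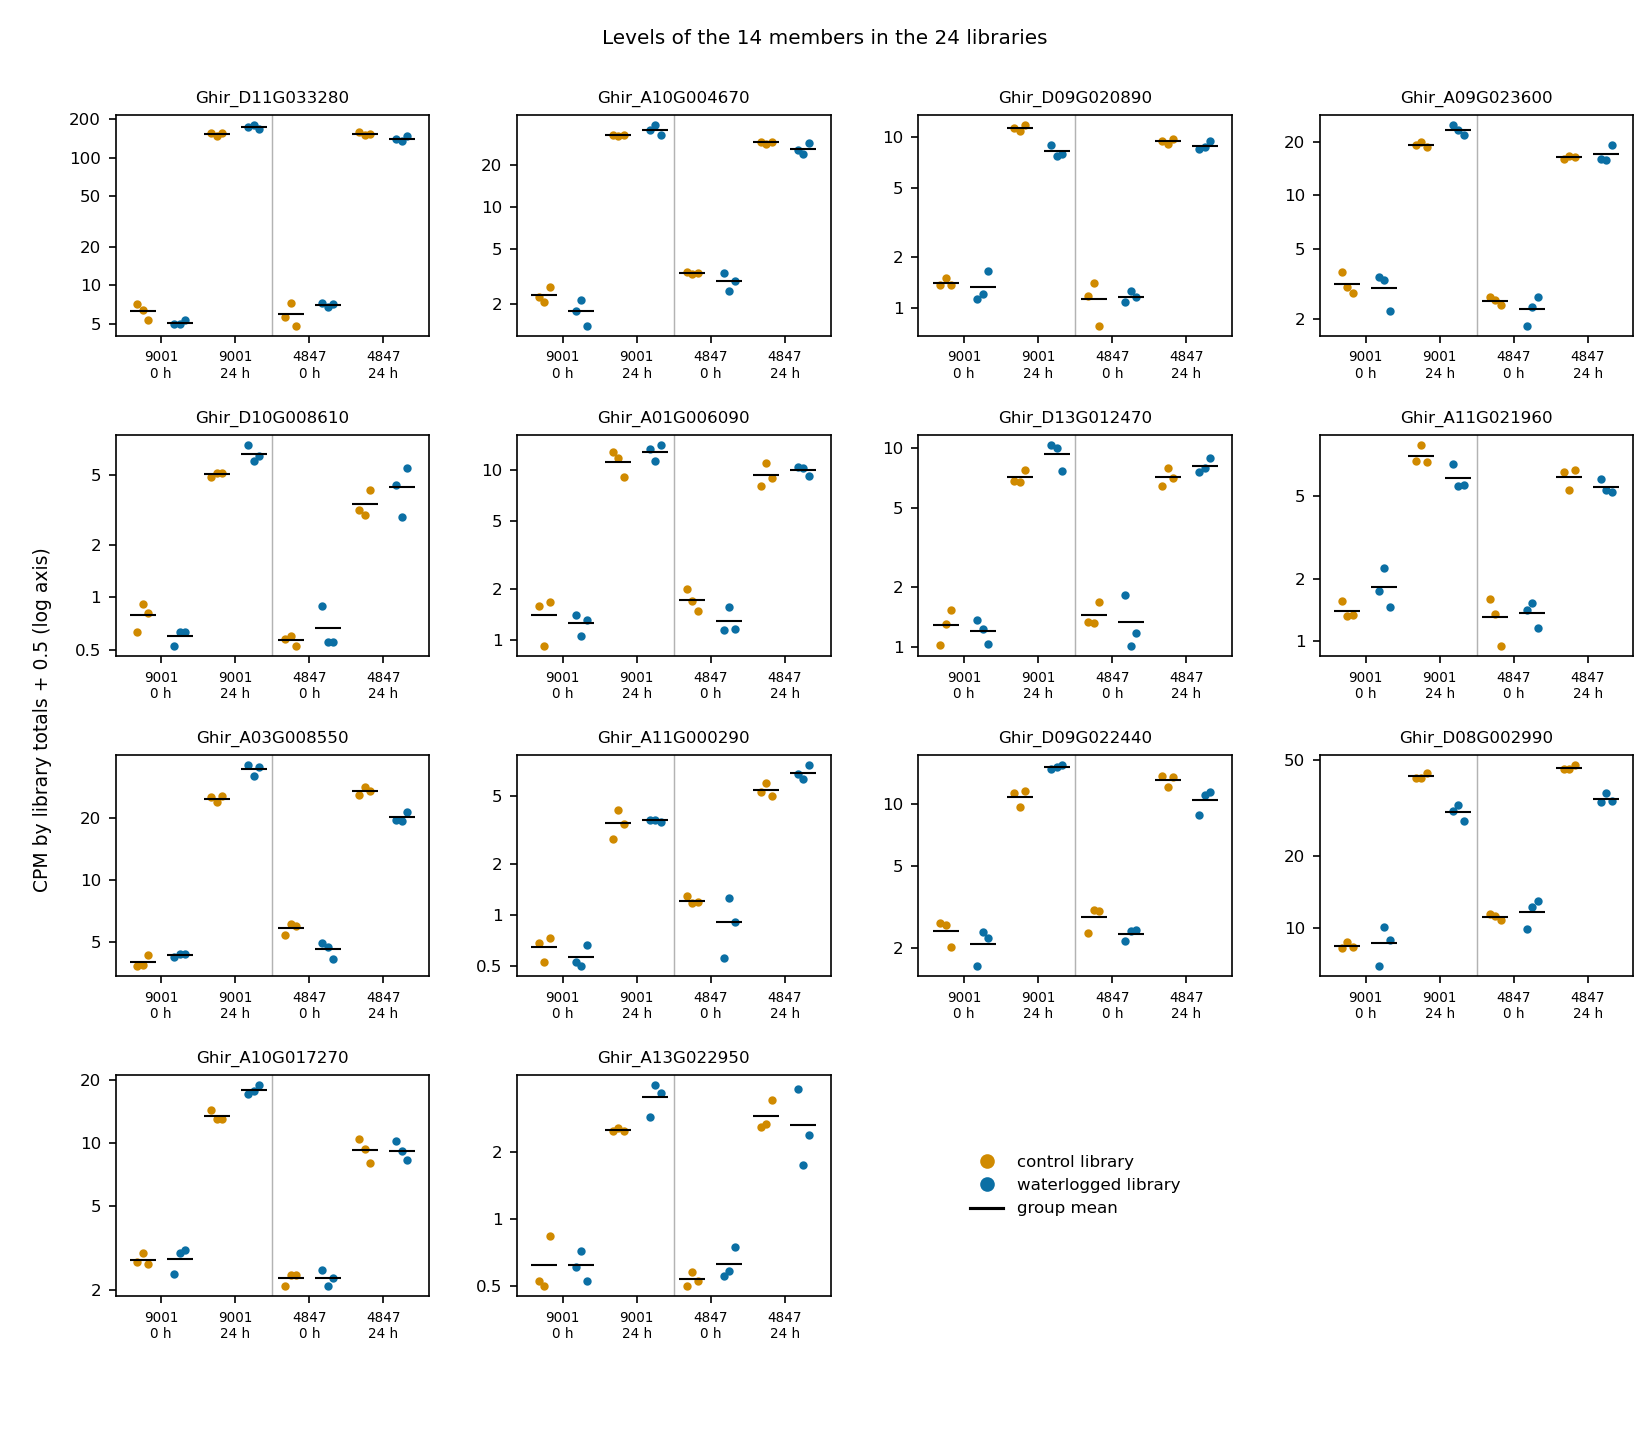
Level of each of the 14 members in each library (points; CPM by library totals plus 0.5, log axis), with group means as lines, for control (orange) and waterlogged (blue) roots of both varieties at 0 h and 24 h. Panels are ordered by the smaller control rise. In all 14 panels every library at 24 h lies above every library at 0 h of the same variety and treatment.

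Waterlogged roots showed the same step from 0 h to 24 h, which the rule for choosing members fixes within its bounds. The log2 ratio of 24 h over 0 h in waterlogged roots had a median of 2.89 in 9001 (1.75 to 5.09) and 2.64 in 4847 (1.57 to 4.32). For all control risers these medians were 1.96 and 0.44. The members' summed level in waterlogged roots went from 28.1 CPM ± 2.63 (SD, n = 3) to 374 ± 11.6 in 9001, and from 33.5 ± 1.00 to 298 ± 11.9 in 4847.

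At 0 h, waterlogged and control libraries overlapped for 13 of 14 members in each variety. The median log2 ratio of waterlogged over control was -0.09 in 9001 (-0.40 to 0.38) and -0.05 in 4847 (-0.42 to 0.25). In 9001 no member had all waterlogged libraries above the controls (20.1% of all IDs did) and 1 had all below (49.0% did). In 4847 the members numbered 0 above (21.1%) and 1 below (45.3%). The members below were Ghir_D11G033280 in 9001 and Ghir_A03G008550 in 4847. Since the choice of members bounded these ratios, nothing is read from the gap between the members' counts and those of all IDs.

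At 24 h, by library totals, waterlogged levels of the members were mostly a little above the controls in 9001 and mostly a little below in 4847. The direction in 4847 depended on the scaling, and under TMM (described below) all 14 members were above 0 there. The median log2 ratio was 0.24 in 9001 (-0.495 to 0.49), with 11 of 14 members above 0, and -0.10 in 4847 (-0.43 to 0.33), with 5 of 14 above 0. In 9001, 8 members had every waterlogged library above the controls (21.9% of all IDs did) and 3 had every one below (41.1%). In 4847, 1 member lay wholly above (16.0%) and 4 wholly below (54.8%). So a ratio inside the bound did not always mean overlapping libraries: 11 members in 9001 and 5 in 4847 had none. The choice of members bounded these ratios too, so nothing is read from the gap to the counts of all IDs.

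Ghir_D08G002990 and Ghir_A11G000290 are examples, though neither shows the commonest state in 9001, every waterlogged library above the controls. Ghir_D08G002990 had 30.2, 32.2 and 27.4 CPM in waterlogged 9001 at 24 h and 33.1, 36.0 and 33.2 CPM in waterlogged 4847. All 6 libraries were below their controls, at 0.706-fold in 9001 and 0.741-fold in 4847. Ghir_A11G000290 had 3.12, 3.10 and 3.03 CPM in waterlogged 9001, inside the range of its controls (2.29, 3.64 and 2.90 CPM). In 4847 it had 6.21, 5.75 and 7.06 CPM, above all its controls (4.79, 5.47 and 4.51 CPM). It was the 1 member wholly above the controls in 4847.

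Among the other members at 24 h, Ghir_A09G023600 and Ghir_D09G020890 were apart from their controls in 9001 alone. So were Ghir_A10G004670, Ghir_D10G008610, Ghir_A11G021960, Ghir_A10G017270 and Ghir_A13G022950. Ghir_A01G006090 and Ghir_D13G012470 were apart from them in neither variety. Ghir_A09G023600 held 24.3, 23.0 and 21.3 CPM in waterlogged 9001 at 24 h, above all its controls at 18.6, 19.5 and 18.3 CPM. In 4847 it held 15.5, 15.2 and 18.8 CPM, around its controls at 15.5, 16.0 and 15.9 CPM. Ghir_A01G006090 held 12.8, 10.9 and 13.5 CPM in waterlogged 9001 against controls of 12.3, 11.3 and 8.61 CPM. In 4847 it held 9.90, 9.80 and 8.68 CPM against controls of 7.60, 10.5 and 8.44 CPM, so that its libraries overlapped in both varieties. Ghir_D09G020890 had 8.44, 7.25 and 7.45 CPM in waterlogged 9001, below all its controls. In waterlogged 4847 it had 8.03, 8.15 and 8.90 CPM, which overlapped them.

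Low counts at 0 h and the added 0.5 CPM limit how closely a match at 0 h can be read. Without the pseudocount, 4 members in 9001 and 4 in 4847 exceeded 1.41-fold at 0 h, and 2 and 0 did at 24 h. Ghir_A13G022950 had 0, 3 and 1 counts in the control libraries of 4847 at 0 h and 2, 3 and 9 in the waterlogged ones. The ratio of its summed counts per total was 3.68, with an exact 95% interval of 1.16 to 15.4. Ghir_D10G008610 had 5, 16 and 12 counts in control and 1, 5 and 5 in waterlogged 9001 at 0 h, a ratio of 0.344 with an interval of 0.157 to 0.699. Intervals that lay wholly within 1.41-fold were had by 4 members in 9001 and 5 in 4847 at 0 h, and by 5 and 10 at 24 h. These intervals cover counting error only.

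Of the 4 scalings run, only library totals, by which the members were chosen, kept all 14 within the waterlogging bounds. TMM scaling, which sets libraries level on the bulk of their genes, gave mean scaling factors of 1.06 (9001) and 1.05 (4847) for controls at 0 h and 1.47 for controls of both varieties at 24 h. For waterlogged roots they were 0.584 (9001) and 0.654 (4847) at 0 h and 1.22 and 0.897 at 24 h. Against library totals and before any pseudocount, TMM moved every log2 ratio of waterlogged over control by 0.86 (9001) and 0.68 (4847) at 0 h. At 24 h these moves were 0.27 and 0.71, and the control rise moved by -0.48 in 9001 and -0.49 in 4847. With 0.5 CPM added, IDs with few counts moved less. At 0 h in 9001 the ratio of Ghir_D10G008610 went from -0.39 by library totals to -0.20 under TMM.

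Under TMM, 0 of the 14 members met the rule, and 8 other IDs did. The members' median log2 ratio of waterlogged over control became 0.47 (9001) and 0.39 (4847) at 0 h and 0.49 and 0.58 at 24 h. Of the 14 members, 12 (9001) and 13 (4847) were then above 0 at 0 h, and 11 and 14 at 24 h. By library totals these counts were 4, 7, 11 and 5. All 4 ratios were above 0 for 9 members under TMM and for 0 by library totals. The control rise stayed above 0 for all 14 members, with medians of 2.08 and 1.91, and 5 of them still reached 2 in both varieties. The label of genes untouched by flooding therefore depends on the scale. The members are IDs whose share of the library in waterlogged roots, with 0.5 CPM added, was within 1.41-fold of the control. RLE scaling left 1 of the 14 members within the rule and upper-quartile scaling left 3.

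**Figure D3:**
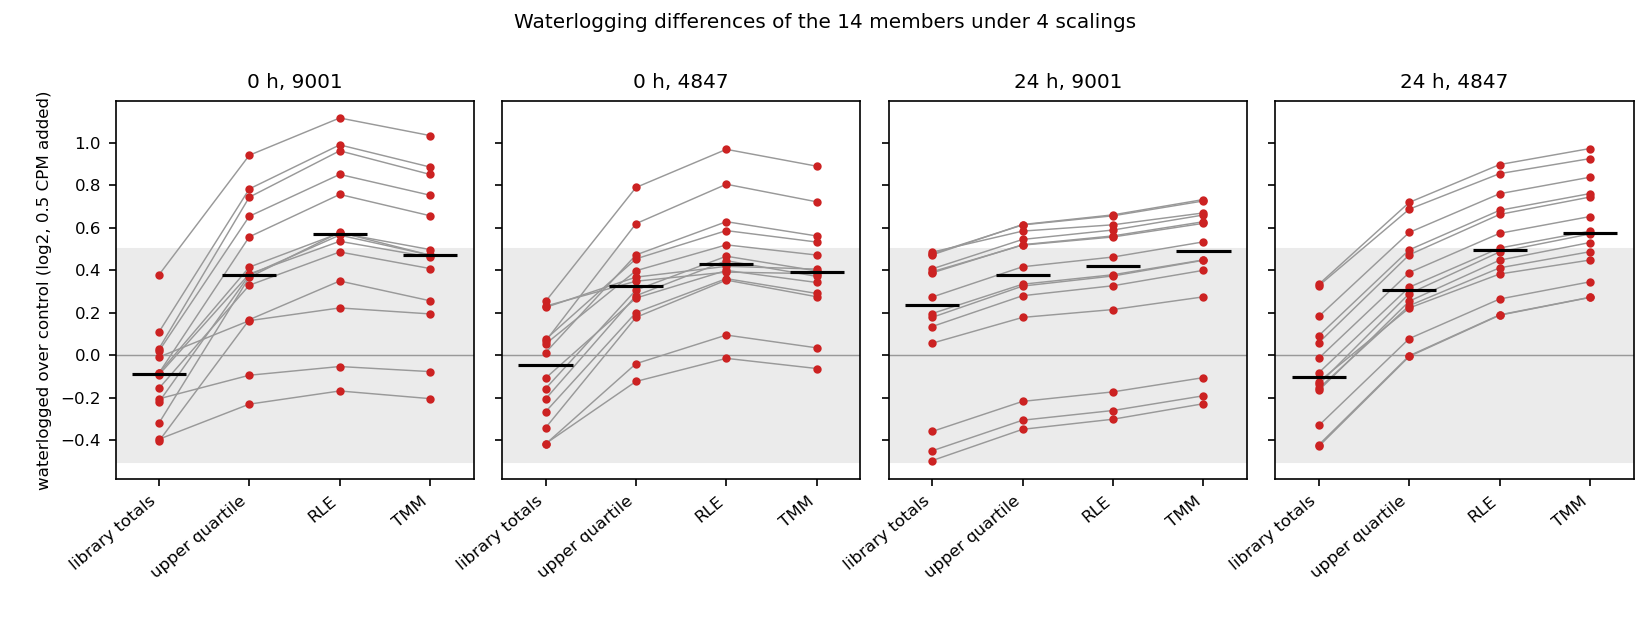
Log2 ratio of waterlogged over control for the 14 members (points) by library totals and under TMM, RLE and upper-quartile scaling, at 0 h and 24 h in each variety, with medians as bars, lines joining each member and the range within the bound of 0.5 shaded. The medians lie between -0.10 and 0.24 by library totals and between 0.39 and 0.58 under TMM.

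The difference between varieties within a condition was not itself used to choose the members and was tested. The choice still links these differences. By library totals, its bounds limit how far the difference in waterlogged roots can depart from that in control roots at the same time. Nothing is therefore read from the gap between the members' counts of calls and those of all genes tested. For this, all 24 libraries entered 1 edgeR quasi-likelihood fit with TMM scaling over 50638 genes, which included all 14 members, and a gene was called at a Benjamini-Hochberg adjusted p under 0.05. In control roots at 24 h the fitted log2 differences of the members, 9001 over 4847, ran from -0.74 to 0.64. The test called 1 member higher in 9001 (9.95% of all genes tested were called so) and 0 lower (9.08%). No member was called at 2-fold or more (4.30%), and neither DESeq2 nor limma called any at that size. At an unadjusted p under 0.05, edgeR gave 5 members. In a fit of the control 24 h libraries alone, which tested 47706 genes after its own filter, 9 members were called and so were 31.1% of all genes tested, against 19.0% in the fit of all libraries. DESeq2 called 2 members and 21.3% of all genes tested.

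Ghir_A10G017270 was the member called in control roots at 24 h. It held 13.9, 12.5 and 12.6 CPM in 9001 against 9.94, 8.90 and 7.54 CPM in 4847, and the varieties did not overlap. Its log2 difference, 9001 over 4847, was 0.56 (SE 0.129, edgeR adjusted p = 0.000932). In waterlogged roots at 24 h it held 16.7, 17.2 and 18.3 CPM in 9001 against 9.71, 8.64 and 7.78 CPM in 4847. There the TMM-scaled log2 difference was 0.55 (SE 0.134, edgeR adjusted p = 0.000417). At 0 h it was also called in waterlogged roots, at 0.54 (edgeR adjusted p = 0.0158), a call lost without the libraries numbered 2, without those numbered 3, by library totals, with only the libraries compared and with limma. The log2 difference was 0.41, 0.46, 0.38 and 0.54 under the first 4 of these. In control roots at 0 h the difference was 0.35 and was not called (edgeR adjusted p = 0.199).

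In control roots at 0 h, 1 member was called higher in 9001 (7.47% of all genes tested) and 4 lower (7.34%), and 2 of these 5 differed by 2-fold or more (4.02%). Ghir_A11G000290 was lower in 9001, with 0.184, 0.0262 and 0.234 CPM against 0.783, 0.672 and 0.681 CPM in 4847. Its log2 difference was -2.25 (SE 0.521, edgeR adjusted p = 0.00140), from 17 counts in 9001 and 82 in 4847. Ghir_D10G008610 was higher in 9001 by 1.99 (SE 0.669, edgeR adjusted p = 0.0365), from 33 counts against 8. It lost its call without the libraries numbered 2 and without those numbered 3, with log2 differences of 1.99 and 1.56, and with limma, with 0.15 on log2(FPKM + 1) and 0.84 on log2(FPKM + 0.1). The filter left it out of the fit of only the libraries compared. The other 3 were lower in 9001. They were Ghir_A10G004670 at -0.65 (edgeR adjusted p = 0.00237), Ghir_A03G008550 at -0.62 (edgeR adjusted p = 4.90e-05) and Ghir_D08G002990 at -0.43 (edgeR adjusted p = 0.00275). The first of these was no longer called without the libraries numbered 1, at a log2 difference of -0.61.

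In waterlogged roots at 0 h, 3 members were called higher in 9001 (15.6% of all genes tested) and 4 lower (15.4%), and 1 of these 7 differed by 2-fold or more (8.39%). Ghir_A11G000290 was again the one past 2-fold, with 0.0272, 0 and 0.160 CPM in 9001 against 0.0554, 0.760 and 0.410 CPM in 4847. The libraries overlapped, its log2 difference was -2.51 (SE 0.699, edgeR adjusted p = 0.00448), and the counts were 7 in 9001 and 45 in 4847. The call was lost without the libraries numbered 2, where the log2 difference was -1.13, and with limma on log2(FPKM + 1), where it was -0.17. The filter left Ghir_A11G000290 out of the fit of only the libraries compared. Ghir_A10G004670 was lower in 9001 by a log2 difference of -0.77 (SE 0.178, edgeR adjusted p = 0.000664), a call kept under every alternative that was run. Ghir_D08G002990 was lower in 9001 by -0.29 (edgeR adjusted p = 0.0327), a call lost without the libraries numbered 1, without those numbered 3, with RLE scaling, with DESeq2 and with only the libraries compared. The log2 difference ran from -0.29 to -0.23 under those settings. With fewer libraries, fewer genes were called overall. Without the libraries numbered 1, 2 or 3 in turn, 3, 3 and 4 members were called, beside 25.1%, 24.6% and 23.4% of all genes tested, against 31.0% with all libraries. A fit of only the libraries compared called 2 members and 33.2% of all genes tested. By library totals, the split was 1 higher and 4 lower, beside 10.6% and 26.4% of all genes tested.

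In waterlogged roots at 24 h, the condition with the most genes called among the 4, 2 members were called higher in 9001 (33.2% of all genes tested) and 3 lower (29.4%). Among these 5, 1 differed by 2-fold or more (29.6%). It was Ghir_A11G000290, lower in 9001 at 3.12, 3.10 and 3.03 CPM against 6.21, 5.75 and 7.06 CPM. Its TMM-scaled log2 difference was -1.48 (SE 0.303, edgeR adjusted p = 4.30e-05). By library totals the difference was -1.04, still called at 2-fold. With limma it was called but under 2-fold, at -0.65 on log2(FPKM + 1) and -0.98 on log2(FPKM + 0.1). Ghir_D08G002990 was lower in 9001 by a log2 difference of -0.63 under TMM (SE 0.0917, edgeR adjusted p = 8.51e-08). It was not called by library totals (-0.19) or with limma (-0.18 on log2(FPKM + 1) and -0.19 on log2(FPKM + 0.1)). The third was Ghir_D09G020890 at -0.56 (edgeR adjusted p = 0.00497), also not called by library totals.

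The members higher in waterlogged 9001 at 24 h were Ghir_A10G017270, given above, and Ghir_A03G008550. The latter held 35.4, 31.5 and 34.7 CPM in 9001 against 19.0, 18.8 and 20.9 CPM in 4847, with a TMM-scaled log2 difference of 0.35 (SE 0.0872, edgeR adjusted p = 0.000672). It was lower in 9001 in control roots at 0 h and higher in waterlogged roots at 24 h. TMM moved the log2 difference between varieties in this condition by -0.44 for every gene, and by library totals the split of the members was 7 higher and 1 lower in 9001. Over all genes tested, 52.7% were then called higher and 15.5% lower. The median difference over all genes tested was 0.11 under TMM and 0.55 by library totals.

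Across the 4 conditions the members did not share 1 order of the varieties. The fitted difference was above 0 in all 4 conditions for 2 members and below 0 in all 4 for 3 members, and 9 members had both signs. Among the 14, 4 were called in no condition (Ghir_A01G006090, Ghir_D13G012470, Ghir_D09G022440 and Ghir_A13G022950), 5 in 1, 2 in 2, 3 in 3 and 0 in all 4. The 3 called in 3 conditions were Ghir_A11G000290 and Ghir_D08G002990, lower in 9001 in each, and Ghir_A10G017270, higher in 9001 in each. Calls in control and waterlogged roots at the same time are not separate evidence. The choice of members kept both treatments close in each variety. The remaining calls, all in waterlogged roots at 0 h, were Ghir_D11G033280, lower in 9001 by -0.35 (edgeR adjusted p = 0.0130), and Ghir_A09G023600 and Ghir_A11G021960, higher by 0.65 and 0.77 (edgeR adjusted p = 0.00540 and 0.0304). Ghir_D11G033280 lost its call without the libraries numbered 1 and with only the libraries compared, at log2 differences of -0.31 and -0.35. Ghir_A09G023600 lost it without the libraries numbered 1 (0.34), without those numbered 2 (0.57) and with limma on log2(FPKM + 1) (0.24). Ghir_A11G021960 lost it with any number left out, at 0.84, 0.66 and 0.79 without numbers 1, 2 and 3. It also lost it by library totals (0.60), with only the libraries compared (0.77) and with limma (0.23 on log2(FPKM + 1) and 0.51 on log2(FPKM + 0.1)).

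**Figure D4:**
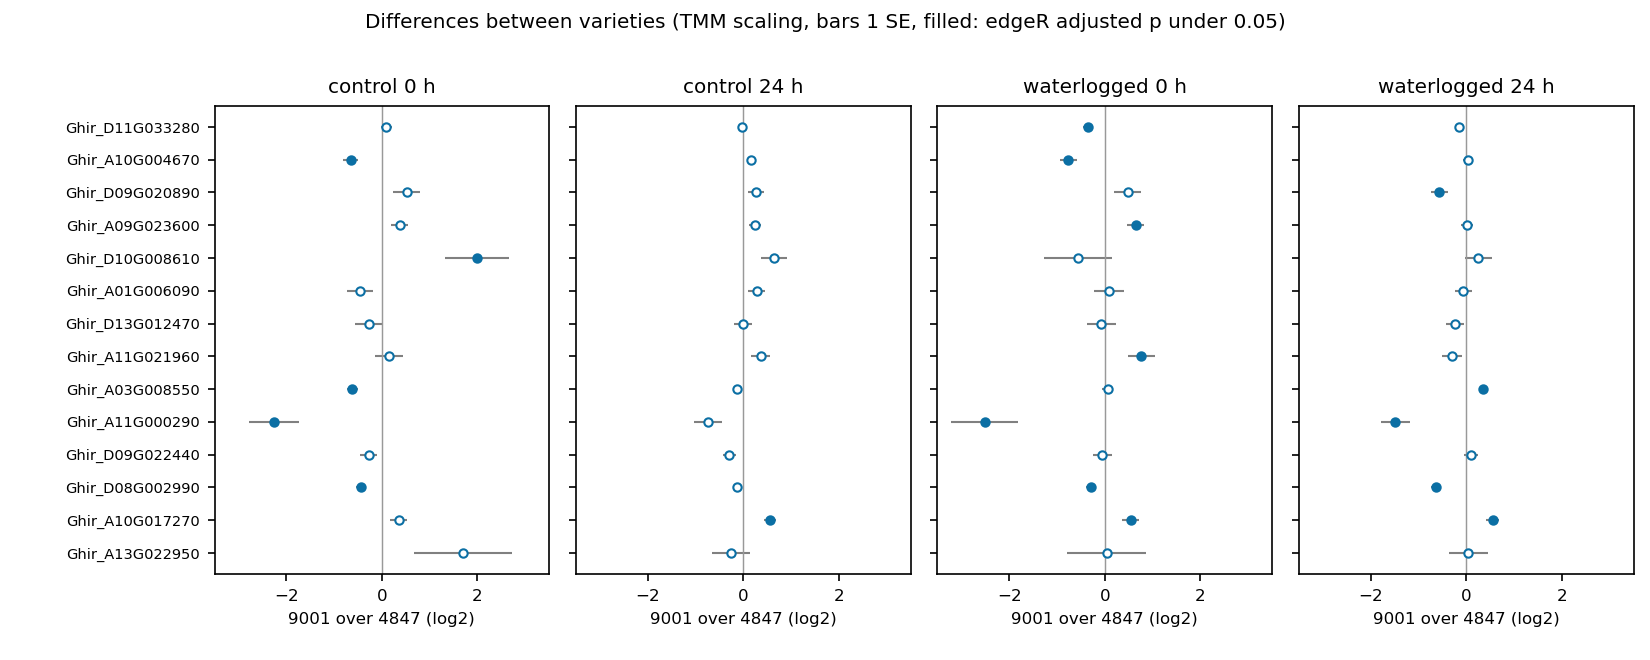
Fitted log2 difference of 9001 over 4847 for each of the 14 members (TMM-scaled edgeR fit, bars show SE) in control and waterlogged roots at 0 h and 24 h, with called members filled. Control roots at 24 h have 1 called member and differences from -0.74 to 0.64, and Ghir_A11G000290 lies below 0 in all 4 conditions.

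By their IDs the members were spread over the genome. They lay on 11 of 26 chromosomes, 8 on A chromosomes (57.1%) and 6 on D chromosomes (42.9%), against 49.1% on A chromosomes for all IDs and 48.7% for the control risers. No members were neighbours, and the closest on 1 chromosome were 142 IDs apart. Among the 28 IDs next to a member, 3 (10.7%) were control risers, against 7.25% of all IDs, and 0 were members. The 14 gene lengths, recovered from the counts and FPKM values, had a median of 1832 bases (453 to 2902), against 1924 for the control risers and 1770 for all IDs with a length. The members' median level in control roots at 0 h was 1.37 CPM in 9001 and 1.49 CPM in 4847, above the control risers' 0.602 and 0.477 CPM. At 24 h it was 10.7 and 8.86 CPM, against 9.07 and 9.90 CPM.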

How the data were processed

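The authors' deposited table gives raw counts for each gene ID, in whole numbers and unscaled. The deposited FPKM table equalled counts per library total and gene length for 60632 of 60633 IDs (relative tolerance 1e-06), and 1 malformed line was left out. Total RNA was taken with a Qiagen RNeasy kit for SMARTer libraries, per the labels' protocols. How reads were aligned, counted and assigned to a strand is not given in the labels or headers used here. The cotton IDs cannot come from mm10, the mouse assembly named in the submitters' processing notes, which leaves the true build unknown.

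CPM were computed from library totals (21423479 to 39945111 counts), and 0.5 CPM was added before each log2 ratio. Varieties were tested within each condition with edgeR 4.0.16 in R 4.3.3 (filterByExpr, TMM, glmQLFit, glmQLFTest, 16 residual degrees of freedom), with Benjamini-Hochberg adjustment over 50638 genes at 0.05. An SE is the fitted log2 difference divided by the square root of its F statistic. The edgeR steps were also run on simulated counts, for the difference in control roots at 24 h alone. All genes had the same spread there and the changed genes did not have low counts. Other conditions and low counts were not covered. Alternatives were RLE, upper-quartile and library-total scaling, other pseudocounts, no filter, fewer libraries, a replicate block, DESeq2 1.42.0 and limma 3.58.1 on log2(FPKM + 1) and log2(FPKM + 0.1).

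The members, lists and tests were chosen with earlier results of these data known. Lists and marker genes defined by gene descriptions could not be applied. The rule named the 2 members with the largest control rise and any member called at least 2-fold between varieties in control roots at 24 h, of which there was none. Every other member named was chosen after its values were seen. No 2 libraries held identical values.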

Additional observations from a re-analysis of the deposited data

Results flagged for a closer look

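For 3 members, every waterlogged library at 24 h lay above every control in 9001 and below every control in 4847 by library totals. The difference between varieties in these log2 ratios of waterlogged over control, 9001 minus 4847, was 0.3144 for Ghir_D11G033280, 0.8935 for Ghir_A03G008550 and 0.8075 for Ghir_D09G022440. These differences were not tested, because the choice of members bounded both ratios. The ratios of Ghir_A03G008550 were 0.47 in 9001 and -0.42 in 4847, close to the widest opposite pair the bound allows. Its levels were 24.6, 23.3 and 24.9 CPM in control and 35.4, 31.5 and 34.7 CPM in waterlogged 9001, and 25.2, 27.6 and 26.3 CPM in control and 19.0, 18.8 and 20.9 CPM in waterlogged 4847. Ghir_D09G022440 had 10.8, 9.08 and 11.0 CPM in control and 14.1, 14.6 and 14.8 CPM in waterlogged 9001. In 4847 it had 13.2, 11.5 and 13.0 CPM in control and 8.31, 10.5 and 10.9 CPM in waterlogged roots. Under TMM scaling all 3 members had ratios above 0 in both varieties, with 0.45 and 0.57 for Ghir_D11G033280, 0.73 and 0.27 for Ghir_A03G008550 and 0.73 and 0.35 for Ghir_D09G022440 (9001, then 4847).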

How the results depend on the processing

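The set of members rested on the scaling, the pseudocount and single libraries. IDs that met the rule numbered 14 by library totals, 8 under TMM, 15 under RLE, 9 under upper-quartile scaling, 19 and 11 with 0.1 and 1 CPM added, and 13 to 14 with 1 replicate number left out. Of the 14 members, 0, 1, 3, 7 and 7 still met it under these settings in turn, and 8 to 12 with 1 number left out: 8 without number 1, 9 without number 2, 12 without number 3. The median control rise was 2.08, 2.19 and 2.27 (9001) and 1.91, 2.00 and 2.08 (4847) under TMM, RLE and upper-quartile scaling. It was 3.08 and 2.73 with 0.1 CPM added, 2.21 and 2.02 with 1 CPM added, and 2.53 to 2.58 (9001) and 2.33 to 2.43 (4847) with 1 number left out. The median waterlogging ratio at 0 h was 0.47, 0.57 and 0.38 (9001) and 0.39, 0.43 and 0.33 (4847) under the 3 scalings. At 24 h it was 0.49, 0.42 and 0.38 (9001) and 0.58, 0.50 and 0.31 (4847). With 1 number left out, these medians ran from -0.23 (without number 2) to -0.0582 in 9001 and from -0.0889 to 0.0085 in 4847 at 0 h, and from 0.25 to 0.30 in 9001 and -0.08 to -0.04 in 4847 at 24 h.

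With 1 number left out, members called in waterlogged roots at 0 h numbered 3 to 4, with 1 to 2 at 2-fold or more, and in control roots at 0 h those at 2-fold or more numbered 1 to 2. Members called numbered 2 (no filter), 9 (only the libraries compared), 2 (DESeq2) and 3 (limma, FPKM + 1) in control roots at 24 h. In waterlogged roots at 0 h they numbered 2 (only the libraries compared) and 3 (limma, FPKM + 1), and at 24 h 8 (library totals), 10 (limma, FPKM + 1) and 8 (limma, FPKM + 0.1). At 2-fold or more, the control 0 h count was 1 with only the libraries compared, 0 with limma on FPKM + 1 and 1 on FPKM + 0.1. The waterlogged counts at 2-fold were 0 with only the libraries compared at 0 h, and 0 with both limma settings at 0 h and at 24 h.

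Over all 14 members and 4 comparisons, 667 fitted differences between varieties came from an alternative. Of these, 556 kept their direction and either kept a call or stayed uncalled. Another 36 kept the direction and lost the call, 29 kept it and gained one, and 46 changed sign. The changes of sign fell in 18 of 56 member and comparison pairs, of 10 members, and none of those pairs was called with the reported settings. With the alternative settings, 4 of the 46 values that changed sign were called. The changes of sign of 3 members named in the report are given here. Ghir_D11G033280 had -0.0571 (without number 1) to 0.2722 (without number 2) in control roots at 0 h. In control roots at 24 h it had 0.0006 with upper-quartile scaling, 0.0104 with only the libraries compared, and -0.0407 to 0.0046 with 1 number left out (0.0046 without number 1). In waterlogged roots at 24 h it had -0.14 with the reported settings and was not called (edgeR adjusted p = 0.0583). With upper-quartile scaling it had 0.0359, also not called. It was called above 0 by library totals (0.30) and with limma (0.298 on log2(FPKM + 1) and 0.303 on log2(FPKM + 0.1)). It was called below 0 with no filter (-0.134), only the libraries compared (-0.136), a replicate block (-0.141) and without number 2 (-0.194). Other settings gave uncalled values below 0. The direction of a call in this comparison therefore depended on the setting. Ghir_A10G004670 had -0.0905 (without number 2) to 0.171 (without number 3) in waterlogged roots at 24 h. Ghir_A03G008550 had -0.10 in waterlogged roots at 0 h by library totals, -0.0299 (without number 3) to 0.139 (without number 1), and -0.0627 and -0.0932 with limma on log2(FPKM + 1) and log2(FPKM + 0.1). The cause of these changes was not tested.

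Replicate numbers did not pair the libraries of the varieties: 0 of 12 same-number pairs had a correlation of deviations over 0.1, and 9 of 24 libraries correlated best with their own number. With a replicate block, the members called numbered 5, 1, 7 and 6 (control 0 h and 24 h, waterlogged 0 h and 24 h), against 5, 1, 7 and 5 without it. Depth limits the ratios at 0 h, where the groups of 3 members held as few as 4 to 18 summed counts.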
